A study of Mus musculus with 2 samples.

Results

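The unfolded protein response and the chaperones of the endoplasmic reticulum (ER) were followed here as 34 genes. They were named one by one for their roles, with earlier results of these data known. All 34 were on the array, which carried 26582 named genes or unnamed transcripts in all. They had 60 of its 41174 probes, with 1 spot each. Of the 34 genes, 20 had 1 tested probe and 14 had several.

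The study compared the intestine of male C57BL/6 mice, 20 weeks old and fed a normal diet, that lacked GDE5 in the gut with that of wild-type males of the same age and diet. GDE5, encoded by Gpcpd1, splits glycerophosphocholine and so frees choline, and the question is what its loss in the gut does to transcript levels. Each of 2 dual-colour Agilent arrays held RNA of both genotypes, with the dyes swapped between them: knockout-labelled RNA was in Cy3 on replicate 1 and in Cy5 on replicate 2. A number of 5 mice is stated for the series. The promoter that drives the deletion, the deleted part of the gene, the stretch of intestine, any pooling of animals and any sharing of RNA extracts between the arrays are not given in the sources used here. P-values thus reflect only how far 2 hybridisations differed, which may be technical. In whole intestine, fewer cells of a type and less RNA per cell cannot be told apart.

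Secreted and membrane proteins are folded in the ER by chaperones such as BiP (Hspa5) and by disulfide isomerases, and those that fail are sent out for degradation. When unfolded proteins build up, the sensors IRE1 (Ern1 and the gut-epithelial Ern2), PERK (Eif2ak3) and ATF6 set off the unfolded protein response: XBP1 and ATF6 raise chaperone and degradation genes, while PERK slows translation and favours ATF4, which raises Ddit3 (CHOP), Trib3, Chac1 and Asns. The intestine leans on this system in its goblet and Paneth cells, which secrete large amounts of mucin and antimicrobial protein, and in mice Agr2 and Xbp1 are needed for those cells.

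The DNA elements by which these factors reach their genes were looked for in RefSeq promoter entries of GRCm38.p6, each of 300 bases, 250 before and 50 after the annotated start. An entry was found for 30 of the 34 genes. The ER stress response element is CCAAT, 9 bases, then CCACG. Its second form is ATTGG, 1 base, then CCACG. The UPR element is TGACG followed directly by TGG, and the amino acid response element, through which ATF4 acts, is TGATG, 1 base, then AA. Both strands were searched. The first 3 share the letters CCACG or, on the other strand, CGTGG, apart from the spacing, so they can lie on the same bases. The stretches below show the elements of genes whose values are described in detail, 5′ to 3′ on the gene's strand, with the element's fixed letters in capitals. They cover a chaperone of the lumen (Hspa5), a lectin chaperone (Calr), a cofactor (Creld2), the kinase inhibitor Dnajc3, a ubiquitin ligase (Syvn1), a gene with an element of either pathway (Herpud1) and targets of ATF4 (Asns and Chac1).
Hspa5, chr2:34772015-34772053, plus strand: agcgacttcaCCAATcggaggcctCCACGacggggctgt
Calr, chr8:84847065-84847103, minus strand: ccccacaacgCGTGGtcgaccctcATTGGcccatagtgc
Creld2, chr15:88819510-88819548, plus strand: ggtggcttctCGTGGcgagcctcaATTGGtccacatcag
Dnajc3, chr14:118937817-118937855, plus strand: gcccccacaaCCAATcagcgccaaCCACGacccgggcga
Syvn1, chr19:6046522-6046560, plus strand: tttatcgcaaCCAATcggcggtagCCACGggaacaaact
Herpud1, chr8:94386307-94386397, plus strand: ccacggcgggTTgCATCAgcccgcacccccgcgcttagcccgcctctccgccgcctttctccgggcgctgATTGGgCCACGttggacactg
Asns, chr6:7693215-7693242, minus strand: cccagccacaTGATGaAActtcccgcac
Chac1, chr2:119351039-119351066, plus strand: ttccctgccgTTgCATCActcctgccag

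In Calr and Creld2 the element reads on the other strand, so its CCACG appears as CGTGG, and in Herpud1 and Chac1 the amino acid response element does so too. The ER stress response element was found in 8 of the 30 promoters (26.67%), those of Hspa5, Hsp90b1, Dnajc3, Creld2, Calr, Canx, Pdia6 and Syvn1, against 0.1187% of all 32851 entries. The second form was in 2 (6.667%, Dnajb11 and Herpud1), against 0.03653% of all entries. The amino acid response element was in 4 (13.33%, Herpud1, Trib3, Chac1 and Asns), against 3.969% of all entries. The letters of the UPR element were in 0 of the 30, against 0.6758% of all entries. A match is a run of letters and not a measured binding site.

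Gpcpd1, the targeted gene, read higher in knockout-labelled RNA on both arrays at 3 of its 4 probes. Values here and below are normalised intensities, and log2 ratios of knockout-labelled RNA over wild-type-labelled RNA as mean ± SD of both arrays (n = 2). The brightest probe had 1255 and 1766 in knockout-labelled RNA and 1031 and 837 in wild-type-labelled RNA in replicates 1 and 2. Its log2 ratio was 0.68 ± 0.56 (0.28 and 1.08). The second brightest was at -0.13 ± 0.43 (-0.43 and 0.17). The dimmer probes were at 0.47 ± 0.25 (0.65 and 0.29) and 0.62 ± 0.08 (0.67 and 0.56). Limma called none of the 4 (adjusted p = 1.00 for each). Its unadjusted p at the 3 that read higher was 0.0446, 0.0415 and 0.00949, from the brightest to the dimmest. A probe outside the deleted part checks nothing, and every direction here rests on the dye labels. Spots well above background made up 75.3% and 70.3% for knockout-labelled RNA and 69.3% and 76.1% for wild-type-labelled RNA, and none was saturated. Having 2 arrays limits the precision of every value.

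No gene of the unfolded protein response was called as different between knockout-labelled RNA and wild-type-labelled RNA. Of the 60 probes, 59 entered the test, which needed a probe to stand well above background on both arrays in at least 1 genotype, the same on each. The exception was a second Edem2 probe, and every gene kept at least 1 probe. Limma called 0 of the 59 at an adjusted p under 0.05 (Benjamini-Hochberg over all 29047 probes, adjusted p = 1.00 for each of the 59). It called 0% of all probes tested, whose smallest adjusted p was 0.597. At an unadjusted p under 0.05 it marked 1 of the 59, that of Chac1, against 1.22% of all probes.

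By size the values stayed close to 0. The mean log2 ratio was within 0.2 of 0 at 52 of the 59 probes, and it passed 0.5 in size at 1. The median over the 59 was 0.01 (0.03 in replicate 1 and -0.01 in replicate 2), and over all probes tested it was -0.01. The 95% interval of limma's mean lay within 2-fold either way at 55 of the 59, against 97.3% of all probes. No probe was 1.5-fold or more apart (0.58 on the log2 scale) in the same direction on both arrays, against 0.12% of all probes that were so higher and 0.0482% that were so lower. The SD between the arrays exceeded the size of the mean at 48 of the 59, against 72.7% of all probes.

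The arrays gave the same direction at 20 of the 59 probes. Both arrays read higher in knockout-labelled RNA at 10 probes, against 17.4% of all probes, and both read lower at 10, against 18.8%. The other 39 went opposite ways, as did 63.9% of all probes, with the brighter signal in Cy3 at 22 of them and in Cy5 at 17. The ratios of the arrays correlated at r = -0.43 over the 59 probes and at -0.38 over all 29047. Over all probes r was -0.18 with a smooth surface removed from each array and -0.0083 with the scanner software's processed ratios. These points share 2 hybridisations and are not independent replicates.

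**Figure D1:**
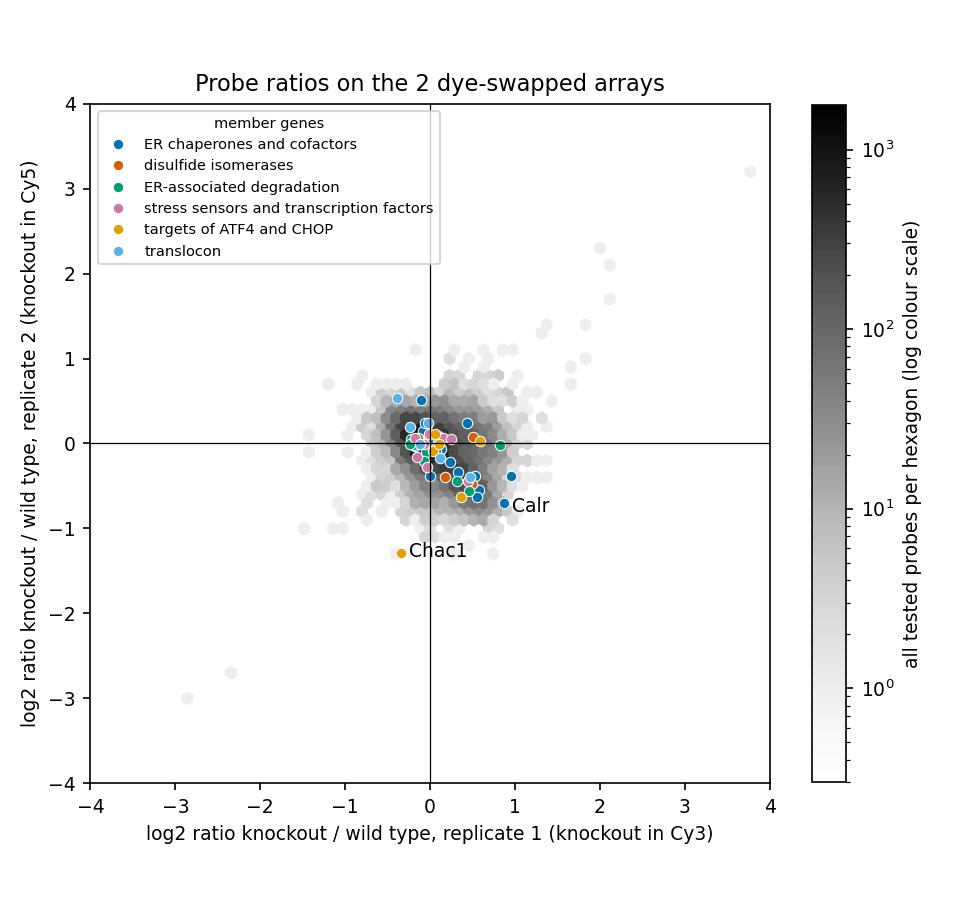
Log2 ratio of knockout-labelled RNA over wild-type-labelled RNA in replicate 1 (x axis) against replicate 2 (y axis), with all 29047 tested probes as grey hexagons and the 59 probes of the 34 genes as points coloured by role. Genes that differed by genotype would lie along the rising diagonal. The points spread along the falling diagonal, with Calr at 0.87 and -0.71, while Chac1 lies alone at -0.35 and -1.29.

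Probe position went along with these opposite ratios. In rows 1 to 133 of the 532 rows of spots, the 17 probes of these genes had a median log2 ratio of 0.46 in replicate 1 and -0.44 in replicate 2, and 14 of them were brighter in Cy3 on both arrays. All tested probes there had medians of 0.31 and -0.25. In the other rows, the 42 probes of these genes had medians of -0.04 and 0.03, and all tested probes had -0.05 and 0.03. Those rows were not all alike. Near the far edge lay probes of Hyou1 (row 511, 0.43 and 0.25), Canx (row 522, 0.33 and -0.34), Hspa5 (row 524, 0.00 and -0.38) and Ssr1 (row 530, 0.47 and -0.39). With a smooth surface removed these were, in the same order, at 0.20 and 0.30, 0.08 and -0.22, 0.04 and -0.15, and 0.19 and -0.21. The part of position in any one gene's value was not tested.

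**Figure D2:**
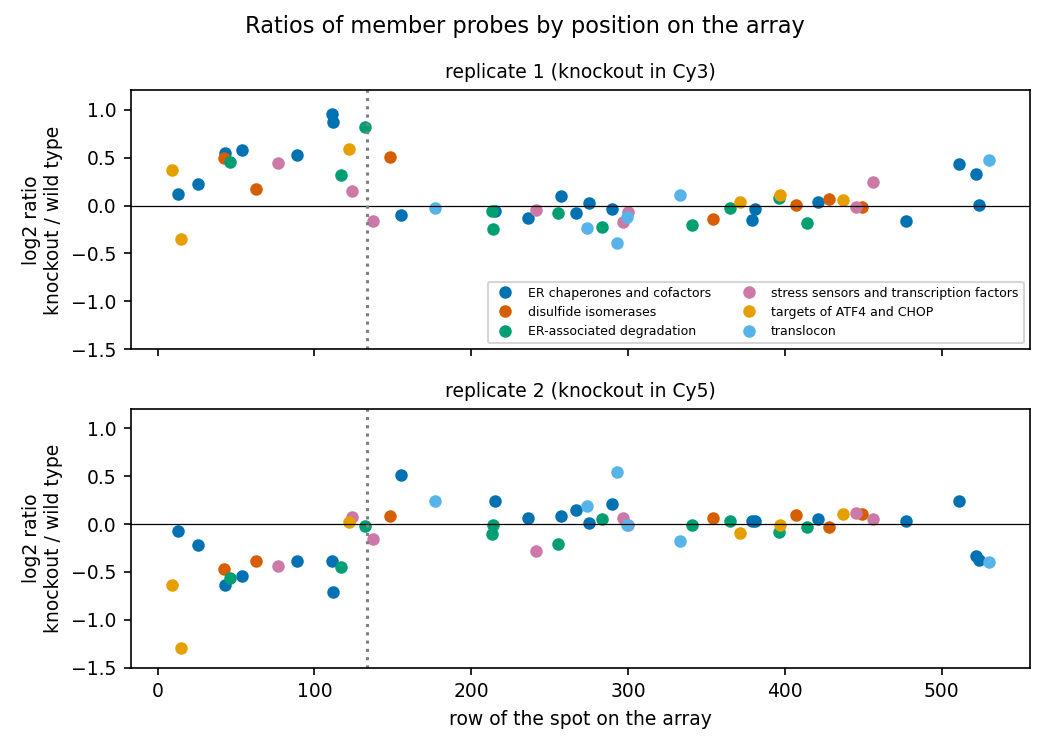
Log2 ratio of knockout-labelled RNA over wild-type-labelled RNA of each of the 59 probes (y axis) by the row of its spot on the array (x axis), in replicate 1 above and replicate 2 below. The dotted line follows row 133. To its left most points lie above 0 in replicate 1 and below 0 in replicate 2.

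Among the 11 chaperones and their cofactors, 3 were higher on both arrays at the brightest probe (Hyou1, Dnajb9 and Sdf2l1), 0 were lower on both and 8 went opposite ways, with a median log2 ratio of 0.02. Over all 18988 genes tested, 3217 were higher on both, 3445 were lower on both and the median was -0.01. Hspa5, the BiP chaperone and the usual readout of the response, had a normalised intensity of 34529 and 26102 in knockout-labelled RNA in replicates 1 and 2, against 34464 and 33904 in wild-type-labelled RNA. The genotypes matched in replicate 1 and differed in replicate 2, so the ranges overlap. The log2 ratio was -0.19 ± 0.27 (0.00 and -0.38, limma 95% interval -0.63 to 0.26, adjusted p = 1.00). The spot lies in row 524. The scanner software's own processing gave 0.09 and 0.00, so the sign of the mean turned.

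Hyou1, a large chaperone that helps BiP exchange nucleotide, had 1872 and 2151 in knockout-labelled RNA and 1391 and 1815 in wild-type-labelled RNA. The genotypes did not overlap, and the log2 ratio at this spot, in row 511, was 0.34 ± 0.13 (0.43 and 0.25, interval -0.04 to 0.72). Its second probe, too dim in wild-type-labelled RNA on replicate 1, was at 0.12 and -0.07. Dnajb9, a BiP partner under the control of XBP1, was near 0 and alike on both arrays at its brighter probes, with 0.09 ± 0.01 and 0.04 ± 0.01. Its remaining probe, in row 89, was at 0.53 and -0.38. Sdf2l1, which works with BiP and its J proteins, was at 0.02 ± 0.01 (0.03 and 0.01).

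The other chaperones differed more between the arrays than between the genotypes. Calr, a lectin chaperone that also holds ER calcium, had 14660.4 and 8650.2 in knockout-labelled RNA, against 8033 and 14106 in wild-type-labelled RNA. It was the only probe of these genes to favour 1 dye by 1.5-fold or more on both arrays, at 0.87 and -0.71 (0.08 ± 1.11). Its second probe was at 0.95 and -0.39, and they lie in rows 111 and 112. Creld2, an ER isomerase-like cofactor, was also brighter in Cy3 on both arrays at 0.55 and -0.64 (-0.04 ± 0.84), and Dnajb11, a J protein of BiP, at 0.58 and -0.55 (0.02 ± 0.79). These lie in rows 43 and 54.

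With the scanner software's processed ratios, which take off a trend over the array surface, Creld2 was at 0.04 and -0.26, Dnajb11 at 0.04 and -0.20, and Calr still at 0.55 and -0.57. Hsp90b1, the ER form of HSP90, was at 0.09 ± 0.18 and its second probe at 0.20 ± 0.43. The means of the 4 probes of Dnajc3, which restrains PERK, lay between 0.00 and 0.09. Canx, the membrane-bound lectin chaperone, had means between -0.06 and 0.00 at its 3 probes. Manf, a secreted ER protein, was at -0.07 ± 0.13. Each of these crossed 0 between the arrays at its brightest probe.

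The 8 genes with an ER stress response element in the promoter had a median log2 ratio of 0.04, spread between -0.19 (Hspa5) and 0.40 (Syvn1), with 1 higher on both arrays and 0 lower on both. The 22 genes whose promoter had no match to the first form of this element had a median of -0.01, with 4 higher on both and 5 lower on both. Among the 22 are Dnajb11 and Herpud1, which carry its second form. The 4 genes with an amino acid response element had a median of -0.11, with Chac1 at -0.82 at the low end and Trib3 at 0.31 at the high end. The groups are small and differ in other ways, so no test was made between them.

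Of the 4 disulfide isomerases, Pdia6 was higher on both arrays at its brightest probe, at 0.05 ± 0.06, and Pdia3, Pdia4 and Agr2 went opposite ways. Agr2, the isomerase that goblet cells need for mucin in mice, had 42051 and 42234 in knockout-labelled RNA and 42373 and 39341 in wild-type-labelled RNA. The ranges overlap and the log2 ratio was 0.05 ± 0.08 (-0.01 and 0.10, interval -0.32 to 0.41). Pdia3, the partner of the lectin chaperones, was at 0.02 ± 0.07, and Pdia4, in row 42, at 0.50 and -0.47. The other 3 Pdia6 probes disagreed, with means of -0.04, 0.29 and -0.11.

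Of the 6 genes of ER-associated degradation, Edem1 and Edem2 were lower on both arrays and the other 4 went opposite ways, with a median of -0.08. Edem1, a lectin that takes trimmed glycoproteins out of the folding cycle, was lower on both arrays at all 3 of its probes, which no other gene with several probes was. The probes read -0.20 and -0.01 (-0.11 ± 0.13), -0.05 and -0.10 (-0.08 ± 0.04), and -0.24 and -0.01 (-0.12 ± 0.17). In the processed ratios the brightest probe was at -0.06 and 0.04, crossing 0. Edem2, of the same family, was at -0.14 ± 0.09 (-0.07 and -0.20), and Edem3 at 0.32 and -0.45.

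Syvn1, the HRD1 ubiquitin ligase at the core of the pathway, had 19384 and 17663 in knockout-labelled RNA, against 10972 and 17877 in wild-type-labelled RNA. The low value is that of wild-type-labelled RNA in replicate 1 alone. The log2 ratio was 0.82 and -0.02 (0.40 ± 0.59, interval -0.28 to 1.08). The spot lies in row 132, and with a smooth surface removed it was at 0.63 and -0.06. A second probe of Syvn1 was dim, with 71.7 and 72.4 in knockout-labelled RNA and 81.2 and 73.8 in wild-type-labelled RNA. It was at -0.18 and -0.03 (-0.10 ± 0.11), and at -0.46 and 0.14 in the processed ratios. Sel1l, the adaptor of Syvn1, was at 0.46 and -0.56. The other 2 Sel1l probes, with normalised intensities between 104 and 220, were within 0.1 of 0 on both arrays. In the processed ratios they were at 0.20 and -0.30, and at 0.03 and 0.18. Herpud1, which organises the complex, was at -0.09 ± 0.20.

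The sensors themselves showed no shared direction. At the brightest probe, 1 of the 6 sensors and transcription factors was higher on both arrays, 3 were lower on both and 2 went opposite ways, with a median of -0.05. Ern1, the widespread IRE1, was at -0.06 ± 0.17, and Ern2, its form in the gut epithelium, at -0.04 ± 0.04 (-0.07 and -0.01). Both were dim. Ern1 had 159 and 169 in knockout-labelled RNA, against 180 and 161 in wild-type-labelled RNA. Ern2 had 185 and 196 in knockout-labelled RNA, against 194 and 198 in wild-type-labelled RNA. In the processed ratios Ern1 was at -0.03 on each array and Ern2 at 0.06 and -0.25. Eif2ak3, which encodes PERK, was at 0.45 and -0.44 in row 77, and its second probe at 0.15 and 0.07 (0.11 ± 0.06). Atf6 was higher on both at 0.15 ± 0.14 (0.25 and 0.05), and its second probe was at -0.01 and 0.12.

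The transcription factors Xbp1 and Atf4 were lower on both arrays. Xbp1, spliced by IRE1 to its active form, had 3917 and 3924 in knockout-labelled RNA, against 4033 and 4769 in wild-type-labelled RNA. The genotypes did not overlap, but almost all of the gap came from replicate 2 (-0.04 and -0.28, -0.16 ± 0.17, interval -0.56 to 0.23). The probe is not stated to tell spliced from unspliced Xbp1. Atf4 had 1205 and 1176 in knockout-labelled RNA and 1347 and 1310.2 in wild-type-labelled RNA. Its log2 ratio was -0.16 on each array (SD 0.0029, interval -0.52 to 0.20), but -0.34 and -0.16 in the processed ratios. Limma moderates so small an SD with that of all probes, and Atf4 was not called (adjusted p = 1.00).

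**Figure D3:**
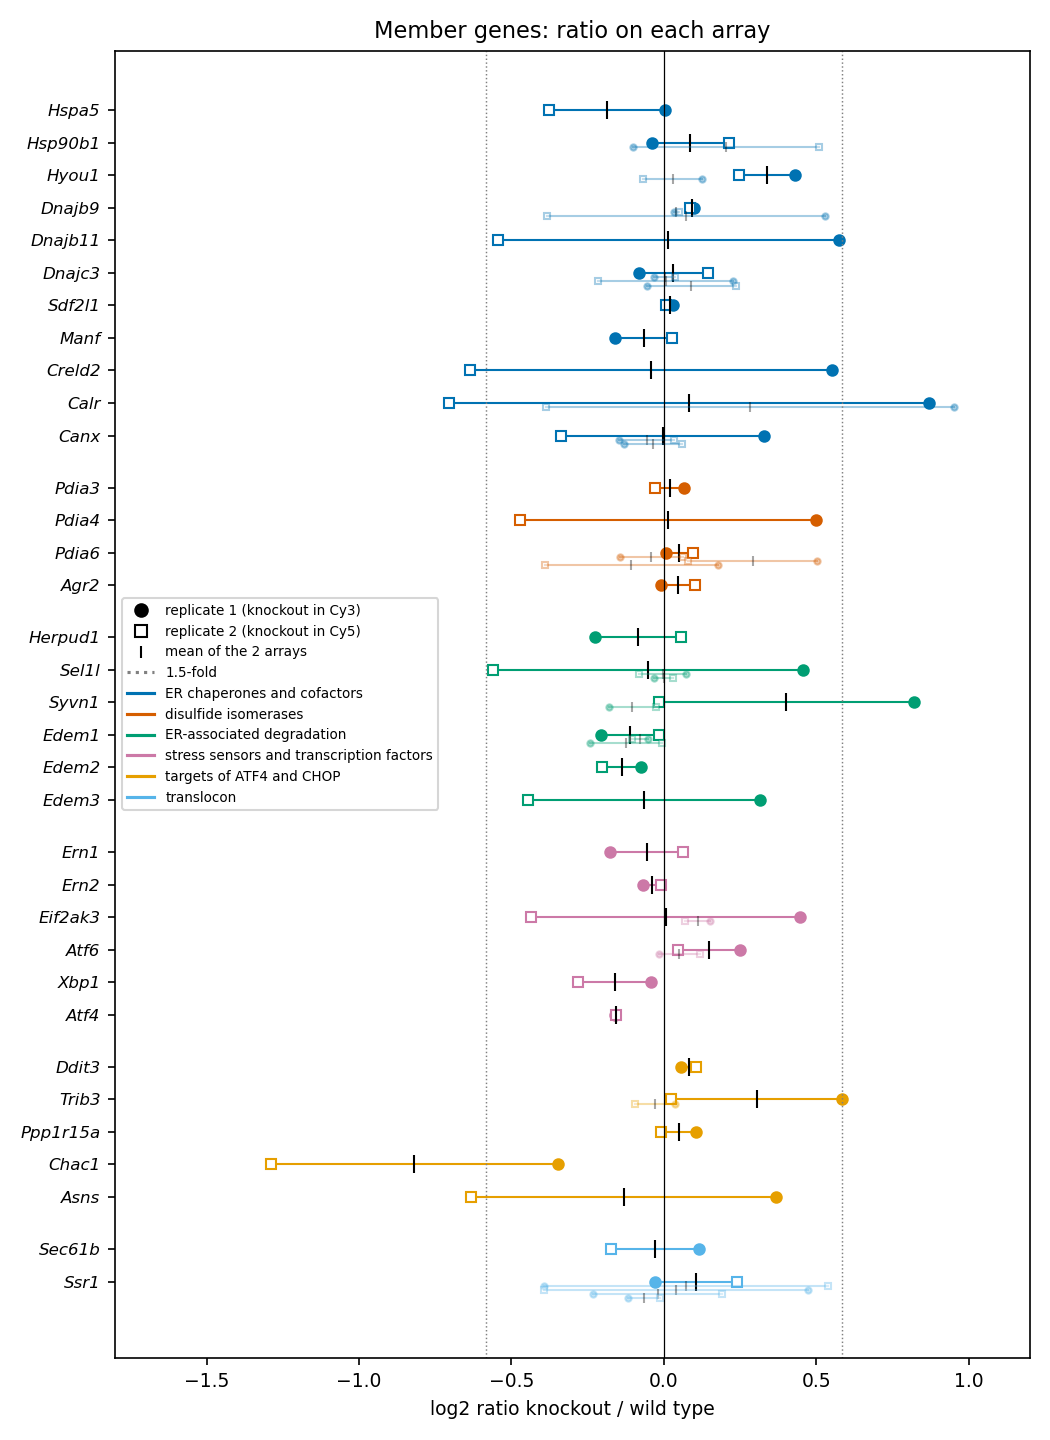
Log2 ratio of knockout-labelled RNA over wild-type-labelled RNA (x axis) for each of the 34 genes (y axis), grouped by role, with replicate 1 as filled circles, replicate 2 as open squares and their mean as a bar. Small pale marks are further probes of the gene and dotted lines mark 1.5-fold. No gene has both arrays beyond the same dotted line, and Chac1 is furthest from 0.

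Chac1, a glutathione-degrading enzyme raised by ATF4 and CHOP, was furthest from 0 of the 34 genes. Its normalised intensity was 334 and 258 in knockout-labelled RNA, against 426 and 629.8 in wild-type-labelled RNA. Both values of knockout-labelled RNA lie below both of wild-type-labelled RNA. The log2 ratio was -0.35 and -1.29, a mean of -0.82 ± 0.67 or 1.76-fold lower (interval -1.56 to -0.08), against -0.19 for the next lowest gene. Limma did not call it over all probes (adjusted p = 1.00), and its unadjusted p, 0.0373, was no longer under 0.05 with median centring or with dim probes kept in the fit. The gene has 1 probe, A_51_P134812 (chromosome 2, 119179990 to 119180049, plus strand, mm9), and no transcript annotation of mm9 was used here to place it in an exon or UTR. Gpcpd1, the targeted gene, lies on the same chromosome, with probes between 132355383 and 132390402. Hspa5, Pdia3, Edem2 and Trib3 lie on that chromosome too. Whether this position bears on the Chac1 value was not tested.

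The spot of Chac1 lies in row 15, in the stretch up to row 133 where all probes had medians of 0.31 and -0.25. With a smooth surface over the array taken off, its ratios were -0.57 and -1.05. The scanner software's own processing gave -0.81 and -0.99, so that it passed 1.5-fold on both arrays there. In the scanner output that the authors deposited, the scanner software's p for the spot was 0.000207 in replicate 1 and 8.79e-06 in replicate 2. That p rests on an error model of 1 spot and not on replicates. It was under 0.01 on both arrays and in the lower direction for Chac1 alone among the 59 probes, against 0.148% of all probes, and for none of the 59 in the higher direction, against 0.437%. The same held in opposite directions, a dye difference, for the brightest Calr probe.

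Of the other 4 targets of ATF4 and CHOP measured here, Ddit3, Trib3, Ppp1r15a and Asns, none was lower on both arrays after normexp and loess. Ddit3, which encodes CHOP, had 329 and 335 in knockout-labelled RNA and 317 and 311 in wild-type-labelled RNA, a log2 ratio of 0.08 ± 0.04 (0.06 and 0.11). The genotypes did not overlap, and the interval was -0.28 to 0.44. Trib3, a pseudokinase that restrains ATF4, had 799.6 and 832 in knockout-labelled RNA, against 533 and 818 in wild-type-labelled RNA. Its ratio was 0.59 and 0.02 (0.31 ± 0.40), so the gap lay in replicate 1. The spot lies in row 122, and with a smooth surface removed it was at 0.33 and 0.12. A second Trib3 probe was dim, with 94.8 and 93.2 in knockout-labelled RNA and 92.3 and 99.4 in wild-type-labelled RNA. It was at 0.04 and -0.09, and at 0.22 and -0.36 in the processed ratios.

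Ppp1r15a, the phosphatase subunit GADD34 that reverses the PERK signal, was at 0.05 ± 0.08 (0.11 and -0.01). Its only probe was dim, with 110 and 105 in knockout-labelled RNA and 102 and 106 in wild-type-labelled RNA. In the processed ratios Ppp1r15a was at 0.22 and -0.18. Asns, which makes asparagine and carries the amino acid response element shown above, was at 0.37 and -0.63 (-0.13 ± 0.71). It lies in row 9 and was at -0.02 and -0.06 in the processed ratios. Of these 5 genes, 2 were higher on both arrays, 1 was lower on both and 2 went opposite ways. The translocon genes went opposite ways at their brightest probes, with Sec61b, a subunit of the Sec61 channel, at -0.03 ± 0.20 and Ssr1, which sits beside the channel, at 0.11 ± 0.19. The other 4 Ssr1 probes had means between -0.06 and 0.07.

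**Figure D4:**
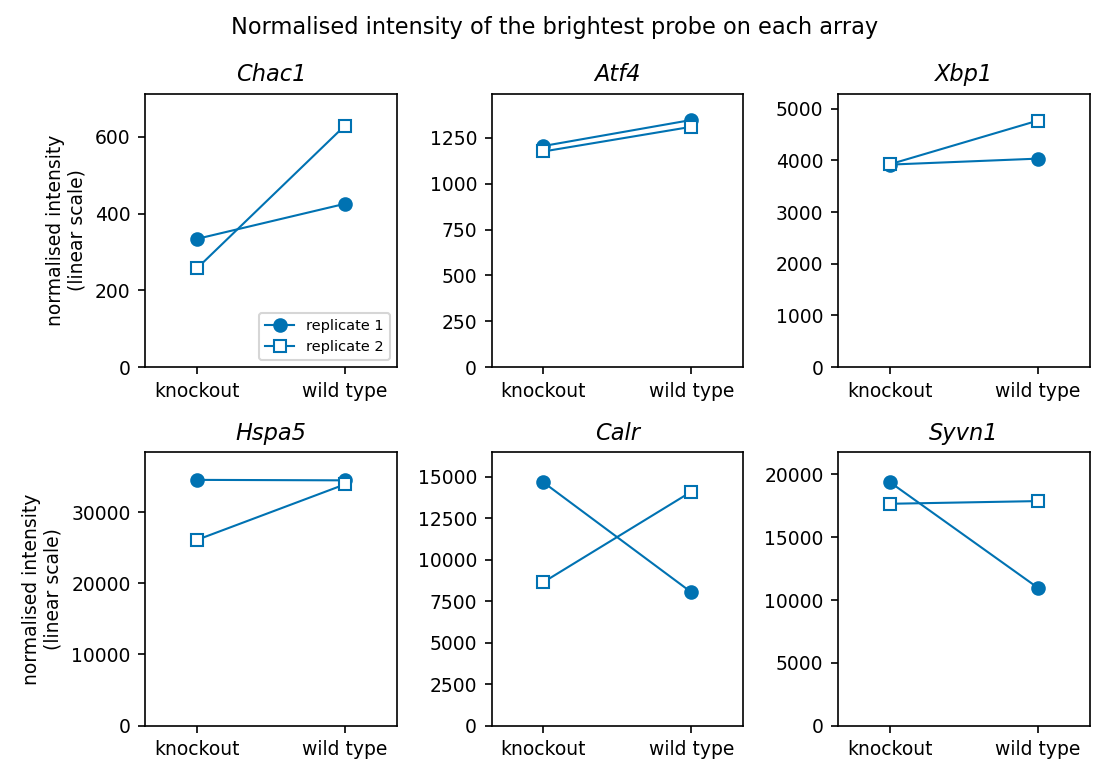
Normalised intensity on a linear scale (y axis) of the brightest probe of 6 genes in knockout-labelled RNA (left) and wild-type-labelled RNA (right), with a line joining the genotypes on each array. Chac1, Atf4 and Xbp1 are lower in knockout-labelled RNA on both arrays, while the lines of Calr cross.

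Genes of the same pathways outside the 34 were set beside them at the brightest probe. After normexp and loess, limma called 0 of the 96 measured, and none was at least 1.5-fold apart on both arrays. Of the 96, 10 were higher on both, 14 were lower on both and 72 went opposite ways, with a median of -0.01. Of 24 further folding and glycan-trimming genes, 3 were higher and 5 lower on both. Uggt1, which puts glucose back on misfolded glycoproteins so that Calr and Canx bind them again, had 645 and 726 in knockout-labelled RNA, against 375 and 513 in wild-type-labelled RNA. Its ratio was 0.64 ± 0.20 (0.78 and 0.50). The processed ratios gave 0.64 on each array, past 1.5-fold. The oxidase Ero1a was at -0.23 ± 0.19 and the oxidase Qsox1 at -0.07 ± 0.03. The testis chaperone Clgn, at 0.09 ± 0.03, was near background, with 72.8 and 79.7 in knockout-labelled RNA, against 69.4 and 73.6 in wild-type-labelled RNA, where it was well above background on 1 array. Its processed ratios were 0.51 and 0.37. Pdia2, lower on both at -0.28 and -0.04, was also dim, with 65.9 and 68.8 in knockout-labelled RNA and 80.0 and 70.9 in wild-type-labelled RNA. Its processed ratios were -0.85 and -1.06, past 1.5-fold.

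Of 15 further degradation genes none was higher on both arrays and 2 were lower on both, Ube2g2, a ubiquitin-conjugating enzyme, at -0.15 ± 0.06 and Aup1, which recruits it, at -0.12 ± 0.09. Of 23 genes of translocation, signal cleavage and N-glycosylation, 5 read higher and 2 lower on both arrays. Ssr3, a partner of Ssr1, was at 0.38 ± 0.16, Rpn1 of the oligosaccharyltransferase at 0.39 ± 0.49, Spcs1 of the signal peptidase at 0.10 ± 0.01 and Sec62 at -0.15 ± 0.10. Of these, Rpn1 owed its mean to replicate 1 (0.74 and 0.04).

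Of 21 measured genes of the integrated stress response, the branch that ATF4 serves, 1 was higher on both arrays and 3 were lower on both. The amino acid carrier Slc7a5, a target of ATF4, was at -0.20 ± 0.04, the growth regulator Sesn2 at -0.17 ± 0.07 and the transcription factor Atf5 at -0.30 ± 0.39. Ddit4, which restrains mTOR, was at 0.11 ± 0.02. Mthfd2 and Fgf21 were not well above background. Of 13 further sensors and processing enzymes, Creb3l3, a sensor of liver and gut, was at 0.20 ± 0.11, Creb3l1 at -0.05 ± 0.02 and Wfs1 at -0.10 ± 0.13, the other 10 went opposite ways, and Mbtps2 was not well above background.

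The secretory cells that use these genes most were read from marker lists, as summed normalised intensity over each list. The sum of 8 goblet cell markers was 526689.7 and 556767 in knockout-labelled RNA, against 548522 and 496145 in wild-type-labelled RNA, with 1 higher on both arrays (Clca1, 0.22 ± 0.03), 2 lower on both (Spink4, -0.17 ± 0.19, and Atoh1, -0.04 ± 0.01) and a median of 0.02. That of 6 measured Paneth cell markers was 368520.4 and 375638 in knockout-labelled RNA, against 473202 and 440735 in wild-type-labelled RNA. Of these, 4 were lower on both (Lyz1, -0.50 ± 0.40, Itln1, -0.34 ± 0.42, Pla2g2a, -0.25 ± 0.15, and Ang4, -0.23 ± 0.20), none was higher on both and the median was -0.24.

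The sum of 8 plasma cell markers was 60540.0 and 68411 in knockout-labelled RNA, against 56695 and 51717 in wild-type-labelled RNA, with 3 higher on both (Jchain, 0.27 ± 0.31, Prdm1, 0.27 ± 0.35, and Irf4, 0.07 ± 0.03) and Sdc1 lower on both at -0.06 ± 0.01. Their median was 0.12. All 9 enterocyte markers were well above background in both genotypes, as the labelled tissue should have them. Of them 4 read higher on both arrays, among them Lct (1.41 ± 0.61), Fabp2 (0.70 ± 0.35) and Apoa4 (0.32 ± 0.31), and 4 lower, among them Slc5a1 (-0.08 ± 0.05), with sums of 493866 and 495133 in knockout-labelled RNA, against 446540.4 and 457958 in wild-type-labelled RNA. The 6 smooth muscle markers all went opposite ways.

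The exocrine pancreas, a tissue rich in ER genes, was at the edge of detection. Of 9 of its markers on the array, Cpa1, Pnlip and Cela2a were not well above background, and the other 6 summed to 784 and 864 in knockout-labelled RNA, against 981 and 911 in wild-type-labelled RNA, with 2 lower on both arrays, Pnliprp1 at -0.46 ± 0.04 and Prss2 at -0.01 ± 0.01. Of 8 skeletal muscle markers, 6 were higher and 2 lower on both arrays, 5 of the 6 at least 1.5-fold (median 0.78, Myh4 2.18 ± 0.23, Tnni2 0.90 ± 0.13, Myh1 0.78 ± 0.06 and Tnnc2 1.18 ± 0.62), with sums of 3708 and 3514 in knockout-labelled RNA, against 2302 and 2181 in wild-type-labelled RNA. Between the genotypes, the goblet sums overlapped, as did those of smooth muscle. Smooth muscle had 107048 and 89506 in knockout-labelled RNA, against 93782 and 107317 in wild-type-labelled RNA. The Paneth, plasma cell, enterocyte, pancreas and skeletal muscle sums did not overlap. How often 2 values against 2 separate over all genes was not counted. The part of any of these cell types in the values of the 34 genes was not tested.

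The sign of a gene's mean depended on the processing for 13 of the 34 genes, Hspa5, Calr and Agr2 among them. It held under 7 other ways of processing for 21, of which 9 were higher and 12 lower in knockout-labelled RNA. One of the 7, the mean over a gene's probes, cannot move a gene with 1 probe. In 11 of the 21 the arrays also gave the same direction at the brightest probe after normexp and loess. Of these, Edem1, Edem2, Ern2, Xbp1, Atf4 and Chac1 were lower, and Hyou1, Dnajb9, Atf6, Ddit3 and Trib3 were higher. In the processed ratios the arrays went opposite ways for Edem1 (-0.06 and 0.04), Edem2 (0.17 and -0.30), Ern2 (0.06 and -0.25) and Ddit3 (-0.03 and 0.15), and agreed for the rest of the 11. Edem1, Edem2 and Ern2 also went opposite ways with a smooth surface removed. In the other 10 of the 21, among them Creld2, Asns, Sel1l, Edem3 and Syvn1, the arrays went opposite ways after normexp and loess. Leaving out either array there gives the sign of the remaining one.

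**Figure D5:**
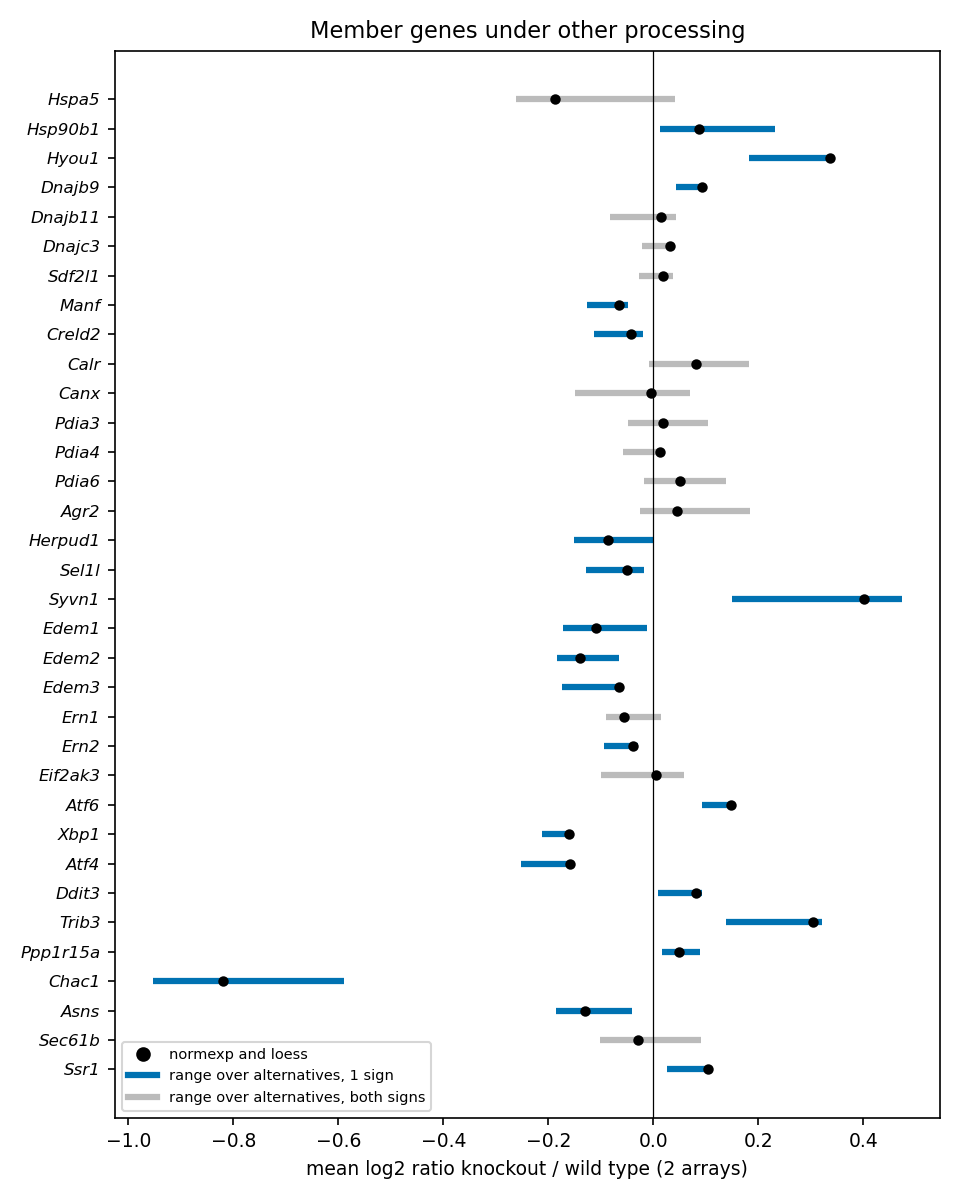
Mean log2 ratio of knockout-labelled RNA over wild-type-labelled RNA (x axis) of each of the 34 genes (y axis) at its brightest probe, as a point, with a line over the range that 7 other ways of processing gave. Blue lines keep 1 sign, as 21 genes did, and grey lines take both, as 13 did. Chac1 spans -0.95 to -0.59, and the next lowest end is that of Hspa5 at -0.26.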

How the data were processed

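Total intestinal RNA of both genotypes was read on 2 dual-colour Agilent arrays (design 014868). In the scanner output, the authors deposited the intensity of each spot and of its local background in either dye, per the file headers from Feature Extraction 11.5.1.1 (9.5 in the submitters' processing notes). The deposited log10 ratio is the software's processed Cy5 over Cy3, and the deposited p-value is its error-model p for 1 spot. The deposited value table of the series repeats these log10 ratios, rounded.

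Spots marked as outliers (133 and 222) were left out, background was corrected by normexp with an offset of 50, and ratios were normalised by loess within arrays with control spots at weight 0 (R 4.3.3, limma 3.58.1). Spots of a probe were averaged and ratios turned to knockout over wild type. The 29047 probes that stood well above background on both arrays in at least 1 genotype were tested by limma (lmFit and eBayes, mean ratio against 0). There was 1 residual degree of freedom and the prior added 3.04. P-values were adjusted by Benjamini-Hochberg over all of them. A dye term would use the residual degree of freedom. The fit was tested on simulated data. Probe coordinates are those of the files (mm9). Promoters come from RefSeq entries of GRCm38.p6, used for sequence and not joined to mm9. Smooth surfaces were fitted with mgcv 1.9.3.

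The 34 genes, the other lists and the tests were chosen with earlier results of these data known. All 34 are accounted for. From each further list, up to 4 genes in the same direction on both arrays were named, those with the largest ratio on the array that showed less. Pdia2 was added for its processed ratios. Protein and exon annotation was not used here.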

Additional observations from a re-analysis of the deposited data

How the results depend on the processing

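Limma called none of the probes of the 34 genes under any of 11 other settings, although over all probes it called 80 with the scanner software's processed ratios, 30 with a normexp offset of 0 and 8 with a surface removed; at an unadjusted p under 0.05 it marked Chac1 alone under 9 of them, Hyou1 alone with no filter on dim probes and 0 probes of these genes with median centring. Probes at least 1.5-fold apart on both arrays numbered 0, but 1 (Chac1) with the processed ratios and 1 with the deposited value table, and 4 on either array alone (without replicate 1 or without replicate 2). Probes in the same direction on both arrays numbered 20 of 59, against 13 with median centring, and, counted per gene, 13 of 34 at the brightest probe and 11 of 34 over the mean of a gene's probes, which have fewer values. The median log2 ratio, 0.01, was -0.032 with median centring; the cause was not tested. Over the 7 settings that can move a gene's ratio, 21 of the 34 genes kept the sign of their mean (9 higher, 12 lower) and 13 changed it at least once. After normexp and loess the arrays differed in sign in 10 of the 21.

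The fit is paired, because each array's ratio sets the genotypes against each other, and no replicate block beyond that could be fitted. Without a replicate no test and no shared direction can be had. With 2 arrays and a spot SD of 0.183 and 0.121 over probes printed 10 times, ratios near 0.1 are within the error of 1 spot. Background limits the dim probes, among them those of Edem2, Ern1, Ern2 and Ppp1r15a and the further probes of Hyou1, Syvn1, Trib3 and Sel1l.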
